A study of Mus musculus with 24 samples.

Results

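Macrophage identity genes are those that a macrophage keeps switched on as part of being a macrophage: the transcription factor PU.1, lysosomal and scavenger proteins, receptors for antibody, the oxidase that makes superoxide, and the signalling proteins behind them. A set of 43 such genes was followed here in cultures described as mouse pulmonary fibroblasts. The set was given by gene symbol, every symbol was found among the 55291 gene names of the count files, each had a mean of at least 10 reads per library, and all 43 passed the filter on low counts that left 16258 genes for testing. All of them are counted below, with none dropped.

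The 24 libraries came from fibroblast cultures of wild type (WT) C57BL/6 mice and of TLR4-/- mice on the same background, aged 4 to 8 weeks, treated for 24 h at passages 3 to 6. The 4 treatments were a saline control (PBS), rmCIRP at 1 μg/ml, the recombinant mouse form of cold-inducible RNA-binding protein, a danger signal that acts through TLR4, rmTGF-β1 at 2 ng/ml, recombinant mouse transforming growth factor-β1, a driver of collagen production, and rmCIRP with rmTGF-β1 together, called "both" here. Each of the 8 conditions had 3 libraries, with 29853346 to 39664606 reads on genes in each. Every culture stood overnight in reduced serum medium before treatment, which the controls share. By the study's methods each group of cells came from a pool of 3 to 4 lungs, and the number of separate pools per genotype is not stated, so that genotype and cell preparation cannot be told apart. The p-values measure the spread between these libraries, which may be technical.

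Tlr4, the receptor that the mutant mice lack, was checked in every library first. Its normalized count, the read count divided by the library's size factor, ran from 629.7 to 802 (median 711) in the 12 WT libraries and from 702 to 941 (median 869.6) in the 12 libraries labelled TLR4-/-. With PBS it was 0.25 higher on the log2 scale in the latter (SE 0.06, edgeR adjusted p = 0.0012), and a count over a whole gene does not show whether the part removed from an allele is transcribed. Tlr4 reads therefore gave no check of the genotype, and the second set is called the libraries labelled TLR4-/- throughout.

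Resident lung macrophages are descended from fetal precursors and blood monocytes, cling to plastic, and can be carried along when fibroblasts are grown out of digested lung. PU.1, encoded by Spi1, binds purine-rich sites with the core GAGGAA at the promoters of many myeloid genes. Through surface Toll-like receptors the same cells change a part of their program within hours, raising some receptors for antibody and lowering others, while genes of identity are usually the more stable layer. In bulk RNA a smaller number of macrophages and less macrophage RNA per cell cannot be told apart.

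By their markers the cultures held abundant fibroblast RNA, with macrophage RNA beside it. Lyz2, a macrophage gene, had a mean of 78175 normalized counts with PBS in WT and 281642 in the libraries labelled TLR4-/-. The medians of Col1a1 over all treatments were 232435 and 247821. All 10 fibroblast markers, among them Col1a1, Col1a2, Col3a1 and Pdgfrb, were present in every library and made up 1.27 to 1.83% of the reads on genes. With PBS 5 of the 10 were called lower in the libraries labelled TLR4-/- and 1 higher (edgeR adjusted p under 0.1). Of all genes tested there 23.2% were called higher. Over all treatments the medians in WT and in the other label were 6931 and 3034 normalized counts for Pdgfra. They were 14742 and 7383 for Thy1, and 1316 and 648 for Fbln1. Most genes defining T cells, B cells, natural killer cells, neutrophils and mast cells were at or near 0. Cd28, of the T cell list, was an exception at 5.14 to 58.7 normalized counts in WT and 121 to 251 in the other label, and Pax5 and Camp, of the B cell and neutrophil lists, reached 68.2 and 70.04 in WT. Cd3e and Cd3g had no read in any WT library, Ncr1 and Gzma had none in any library, and no summed list of these 5 cell types exceeded 8.09 CPM, the count scaled to a fixed number of reads per library. The 6 dendritic cell genes summed to 6.19 to 10.5 CPM in WT and 6.70 to 10.8 CPM in the other label, nearly all of it Zbtb46 and Xcr1, with Flt3 at no more than 2 normalized counts.

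Together the 43 genes took 0.339 ± 0.0155% of the reads in the WT libraries with PBS and 1.25 ± 0.0966% in the PBS libraries labelled TLR4-/- (mean ± SD, n = 3 each), a 3.70-fold difference. Every one of the 12 libraries labelled TLR4-/- (1.14 to 1.42%) lay above each of the 12 WT libraries (0.284 to 0.349%). Within WT the sums stayed close, at 0.312 ± 0.00881% when rmCIRP was given, 0.308 ± 0.0227% after rmTGF-β1 and 0.309 ± 0.0179% after both. Those of the libraries labelled TLR4-/- were 1.22 ± 0.0683%, 1.24 ± 0.0212% and 1.28 ± 0.132% in the same order. Lyz2, lysozyme 2, alone gave 57.7 to 70.2% of the members' reads. Without Lyz2 the WT sum was 0.104 ± 0.00497% with PBS and 0.130 ± 0.00497% with rmCIRP, so that the sum with Lyz2 was lower under rmCIRP than under PBS and the sum without it was higher. A sum is therefore led by a single gene, and the members are taken one at a time below.

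**Figure D1:**
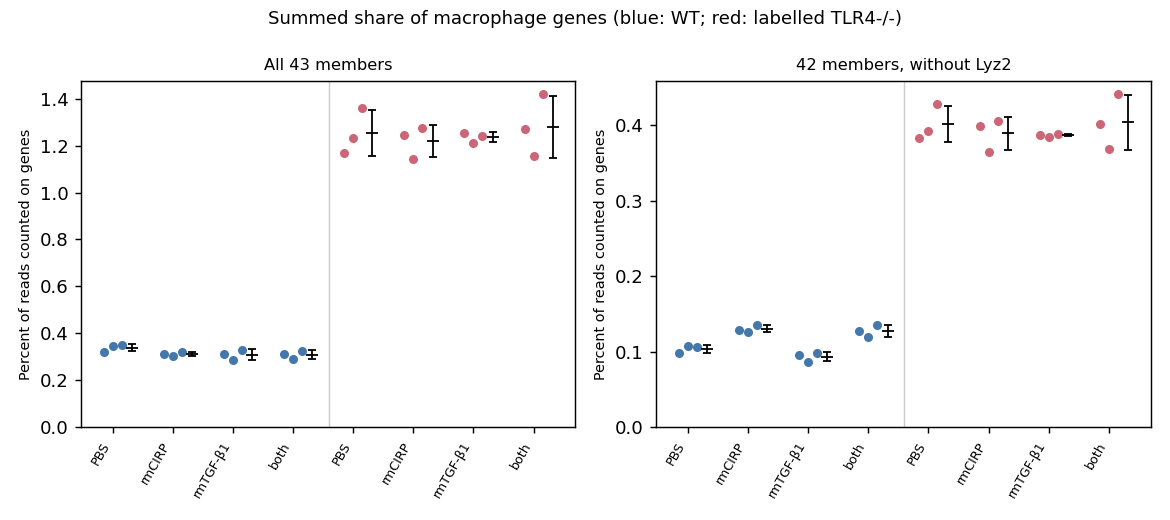
Percent of the reads counted on genes that fell on macrophage genes in each library (points) with the mean and SD of the 3 libraries of a condition (black), for all 43 members on the left and without Lyz2 on the right; "both" is rmCIRP with rmTGF-β1. The libraries labelled TLR4-/- (1.14 to 1.42%) lie above the WT libraries (0.284 to 0.349%), and only without Lyz2 do the WT libraries with rmCIRP lie above those with PBS.

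The first question was whether the macrophage genes differed between the genotypes before any stimulus. All 43 were called higher in the libraries labelled TLR4-/- than in WT with PBS, where 23.2% of all genes tested were called higher (edgeR's quasi-likelihood test, Benjamini-Hochberg adjusted p under 0.1). Their median log2 fold change was 2.16, which is 4.45-fold, with the middle 50% of the genes between 1.87 and 2.32, while the median of all genes was -0.02. The medians of the role groups ran from 1.98 for the 6 cytosolic signalling proteins to 2.56 for the 4 remaining genes. Gpr34, among the 43, passed the filter on low counts only through the libraries labelled TLR4-/-. Its calls between genotypes are therefore no support for a difference.

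Spi1, the master regulator of the lineage, had normalized counts of 431, 441 and 515 in WT with PBS and 2125, 2247 and 2427 in the libraries labelled TLR4-/-, a log2 fold change of 2.29 (adjusted p = 6.3e-16, SE 0.08). Adgre1, which encodes the surface marker F4/80, had 1863, 2204 and 2032 against 6639, 6866 and 6948. Cd68, a glycoprotein of the lysosome membrane, had 1947, 2046 and 1932 against 6764, 7300.2 and 7962. For all 3 genes the groups were far apart, with no WT library near any of the other label. Lyz2 had 74007, 80102 and 80417 against 260951, 280659 and 303315, a log2 fold change of 1.85 (adjusted p = 2e-15, SE 0.07). Ptprc, the CD45 antigen of all leukocytes, had 604, 640.0 and 711 against 3143, 3201 and 3074, and Laptm5, a lysosomal protein of blood cells, had 1608, 1728 and 1578 against 7932, 8108 and 10148. Their log2 fold changes were 2.27 and 2.41, so that these 6 anchor genes spanned 1.74 to 2.41.

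**Figure D2:**
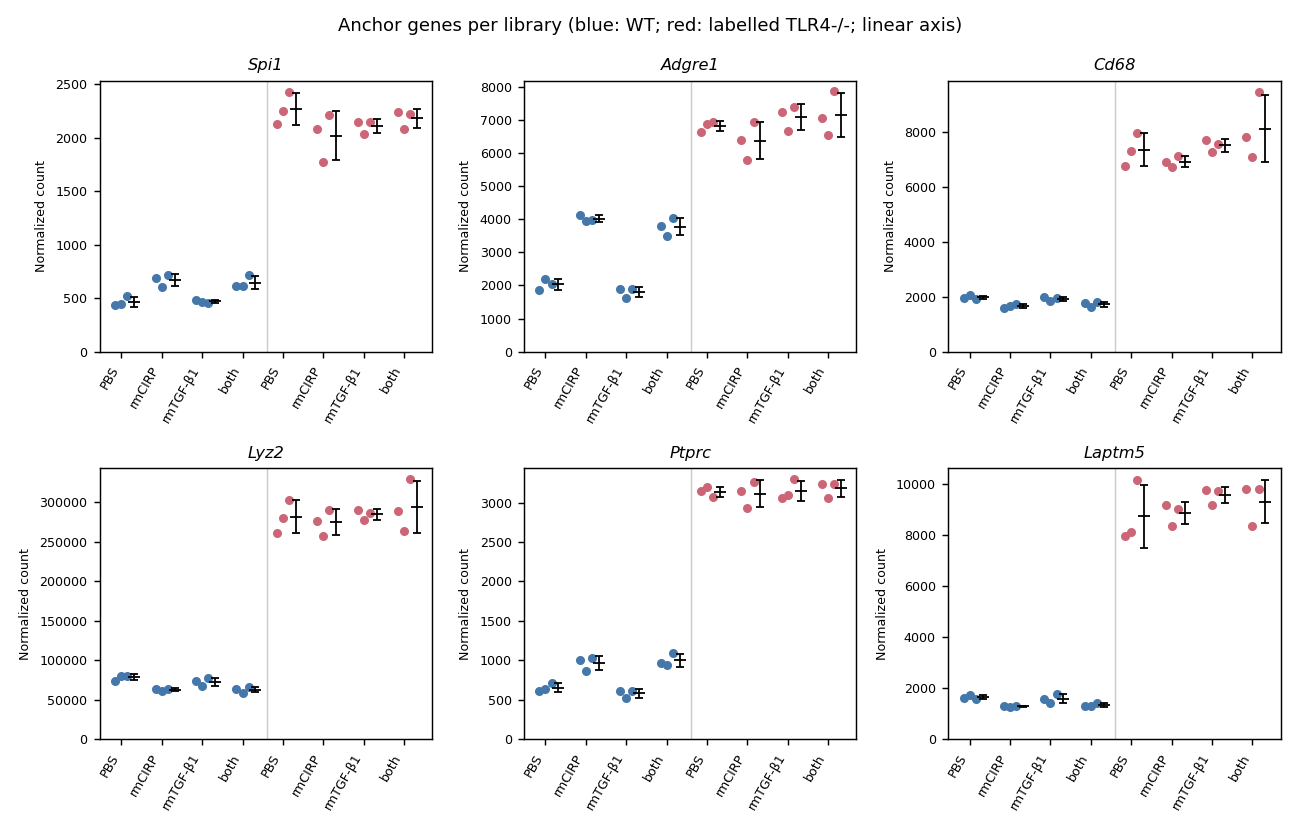
Normalized counts (linear axes from 0) of 6 macrophage anchor genes in each library (points), with the mean and SD of each condition's 3 libraries (black). In each panel the 12 libraries labelled TLR4-/- lie above the 12 WT libraries, and within WT rmCIRP against PBS raised Spi1, Adgre1 and Ptprc and lowered Cd68, Lyz2 and Laptm5.

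Levels differed far more between members than any fold change. Per kilobase of exon, in normalized counts, WT cultures with PBS held 59404 ± 2746 for Lyz2, 3188 ± 146 for Cyba, 1571 ± 49.2 for Cd68, 172 ± 17.02 for Spi1 and 6.04 ± 0.843 for Fgd2. Exon lengths are those of the GENCODE M21 annotation, which may not be the release the reads were counted with.

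To measure how far members stood from the shared value with PBS, the same fit was made with library sizes taken from the members themselves, so that a gene that moves like the typical member has a difference of 0. In that fit 17 members were called above and 14 below the typical member and 12 were not called, so that most members departed from the shared value. On this scale 96.9% of all genes tested were called, since most genes did not share the members' shift. Farthest below were 3 genes. Cyba, the p22phox subunit of the phagocyte oxidase, which many other cells express as well, had 3162, 3465 and 3309 in WT and 5115, 5094 and 5552 in the other label, a log2 fold change of 0.66 (adjusted p = 8.6e-10, SE 0.05). Fgr, a Src-family kinase of myeloid cells, had 70.3, 76.9 and 97.8 against 133, 148 and 154, a log2 fold change of 0.83 (adjusted p = 0.00025, SE 0.16). Cybb, the membrane-bound catalytic subunit of the oxidase, had 2189.5, 2371 and 2436 against 6206, 6674 and 6596 and a log2 fold change of 1.47 (adjusted p = 3.2e-14, SE 0.07). In none of these did the groups overlap. Their values relative to the typical member were -1.41, -1.24 and -0.60 on the log2 scale.

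Farthest above were Gpr34, Fgd2 and Aif1. Gpr34, a receptor for lysophosphatidylserine, had 2 reads in all in the 3 WT libraries with PBS and 95 in those labelled TLR4-/-, a ratio of 48.2 (exact 95% interval 12.97 to 403, for counting error only). No WT library of any treatment had over 4 reads of Gpr34, so its place in the set rests on the libraries where it is high. Fgd2, an exchange factor for the GTPase Cdc42, had normalized counts of 28.9, 29.95 and 22.9 against 233, 253 and 264, and Aif1, the calcium-binding protein IBA1, had 35.6, 48.9 and 46.8 against 339.8, 302 and 356. Their log2 fold changes of 3.19 (SE 0.18) and 2.92 (SE 0.16) lay 1.11 and 0.85 above the typical member.

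With rmTGF-β1 in both genotypes the genotype comparison was repeated in 6 other libraries. Again 43 of 43 members were called higher in the libraries labelled TLR4-/- (24.4% of all genes), with a median log2 fold change of 2.29 and the middle 50% between 1.97 and 2.49. Over the 43 genes the differences with PBS and with rmTGF-β1, which share no library, had r = 0.907 and rho = 0.926. The libraries may still come from the same pools of lungs, which is not stated, so the repeat does not separate genotype from cell preparation. Cyba (0.63) and Fgr (0.79) again had the smallest differences.

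With rmCIRP in both genotypes the picture was less even. Of the 43, 40 were called higher in the libraries labelled TLR4-/-, against 30.4% of all genes tested, and the median was 2.05. The middle 50% now ran from 1.32 to 2.60, a width of 1.28 against 0.457 with PBS, and r with the PBS differences was 0.478. The 3 genes not called were Ms4a6c, Cybb and Syk. Ms4a6c had 456, 360.1 and 456 in WT and 406, 419 and 437 in the other label. Cybb had 6252, 5927 and 6411 against 6349, 6083 and 6556. Syk had 1674, 1633 and 1885 against 1980.0, 1742 and 1943. These ranges overlapped, with log2 fold changes no larger than 0.13 in size (SE up to 0.10). At the other end Susd3 had 5 reads in WT and 850 in the libraries labelled TLR4-/-, a ratio of 160 (exact 95% interval 68.2 to 494). With both proteins 42 members were higher (26.8% of all genes) and 1 was lower (26% of all genes), with a median of 2.15. The lower gene was Cybb, with 6322, 6128 and 7068 in WT and 5688, 4990.0 and 5812 in the other label, a log2 fold change of -0.24 (adjusted p = 0.0046, SE 0.07). Without 4 genes that earlier results had singled out (Rab3il1, Susd3, Cnr2 and Fgd2) the medians with rmCIRP and with both were 1.88 and 1.86.

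The second question was what rmCIRP did to these genes. In WT cultures rmCIRP against PBS raised 18 of the 43 members, where 19.8% of all genes rose, lowered 16, where 24.1% of all genes fell, and left 9 uncalled. The median of the 43 was 0.08. It was 0.06 with Gpr34, Susd3, Cnr2 and Fgd2 set to the lower limits of the exact intervals of their count ratios. The middle 50% of the 43 ran from -0.36 to 0.64. The ends were Susd3, 25.7-fold lower by its reads, and Ms4a6c, 5.37-fold higher. Without the 4 singled out the median of 39 was 0.21, with 18 higher and 12 lower. Calls of 4 genes near the threshold were lost when 1 library was left out: Btk without the first library with rmCIRP (adjusted p = 0.14), Cd37 without the third with rmCIRP or the second or the third with PBS (0.13 to 0.17), Cd48 without the third with rmCIRP or the first or the third with PBS (0.21 to 0.27), and Ncf1 without the first or the third with rmCIRP or the first with PBS (0.14 to 0.17). The members thus had a median near 0 and single genes far to either side, whereas between the genotypes with PBS all 43 differed in 1 direction.

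**Figure D3:**
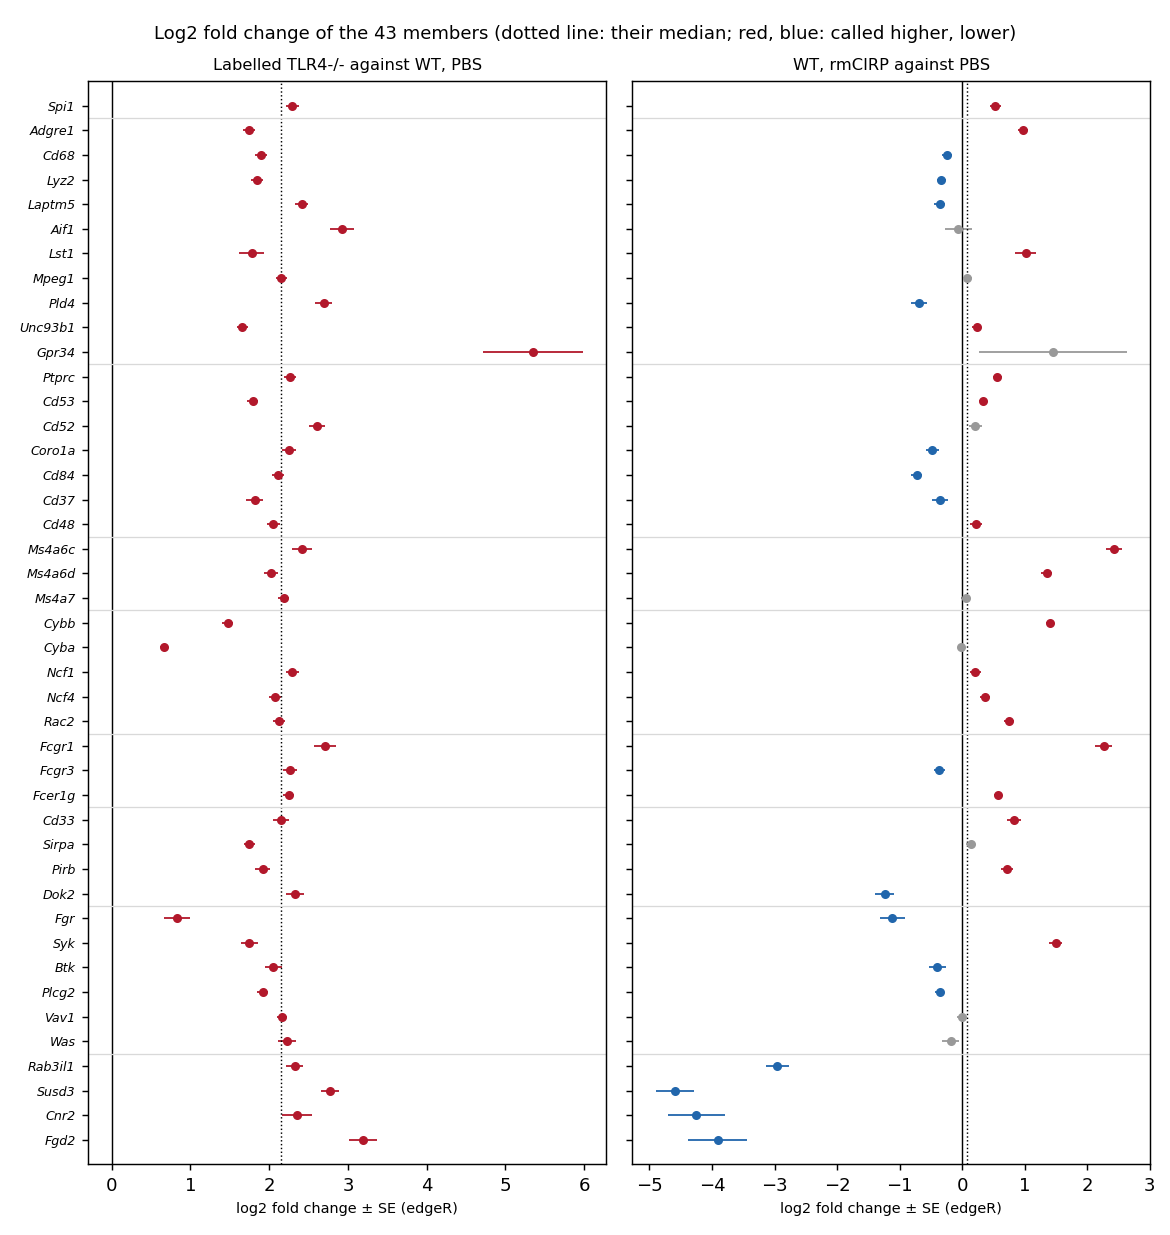
Log2 fold change ± SE from edgeR for each of the 43 members, grouped by role, between genotypes with PBS (left) and for rmCIRP against PBS in WT (right); red and blue mark genes called higher and lower, and dotted lines the median. On the left the genes cluster near 2.16, and on the right they spread on both sides of 0.08; the fitted values of Gpr34 on both sides and of Susd3, Cnr2 and Fgd2 on the right rest on few reads and depend on the prior count of the fit.

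Among the oxidase genes 4 of 5 rose and none fell. Cybb went from 2189.5, 2371 and 2436 with PBS to 6252, 5927 and 6411 with rmCIRP, a log2 fold change of 1.40 (adjusted p = 2.3e-13, SE 0.07). Rac2, the GTPase that activates the complex, rose by 0.75, Ncf4 (p40phox) by 0.36 and Ncf1 (p47phox) by 0.21. Cyba had 3162, 3465 and 3309 and 3379, 3217 and 3283, overlapping groups with a log2 fold change of -0.01 (adjusted p = 0.87, SE 0.05). Over the whole culture Cybb RNA changed relative to Cyba RNA. How much of the Cyba RNA came from cells other than macrophages was not tested.

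Of the 3 Fc receptor genes 2 rose and 1 fell. Fcgr1, the high-affinity receptor for IgG, went from 58.7, 63.9 and 59.3 to 298, 252 and 327, a log2 fold change of 2.26 (adjusted p = 2.1e-11, SE 0.14). Fcer1g, the signalling chain that Fcgr1 and Fcgr3 share, went from 1042, 1149 and 1079 to 1648, 1585 and 1655, a change of 0.57. Fcgr3, a low-affinity receptor, went from 816, 882 and 927 to 627, 669 and 751, a fall of 0.36 on the log2 scale (SE 0.09, adjusted p = 0.0042). None of the 3 had overlapping groups, and the receptors moved in opposite directions.

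The MS4A genes, a cluster encoding membrane proteins with 4 spans, held the gene that rose most. Ms4a6c went from 76.0, 85.9 and 73.9 to 456, 360.1 and 456, a log2 fold change of 2.42 (adjusted p = 8.9e-13, SE 0.13), and reached the level of the libraries labelled TLR4-/- (444, 416 and 402 with PBS). Ms4a6d went from 539, 683 and 601 to 1591, 1458 and 1620.1 (1.35, adjusted p = 7.5e-11, SE 0.09). Ms4a7, beside them in the family, had 508, 546 and 529 and 549, 521 and 581 and was not called (0.06, adjusted p = 0.62, SE 0.08).

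Of the 10 lineage markers 3 rose, 4 fell and 3 were not called. Adgre1 rose from 1863, 2204 and 2032 to 4136, 3939 and 3965 (0.98, adjusted p = 9e-10, SE 0.08). Lst1, a small leukocyte transmembrane protein, rose by 1.02 and Unc93b1, which escorts nucleic acid-sensing Toll-like receptors, by 0.23. Lyz2 fell from 74007, 80102 and 80417 to 63049.7, 60431 and 63904, by 0.33 on the log2 scale, and Cd68 from 1947, 2046 and 1932 to 1600.2, 1671 and 1749, by 0.24. Laptm5 fell by 0.36 and Pld4, a lysosomal nuclease, by 0.69. In these genes the PBS and rmCIRP libraries did not overlap. Mpeg1 (perforin-2), Aif1 and Gpr34 were not called, with log2 fold changes of 0.08 and -0.06 for the first 2 and a ratio of 6 to 2 reads for Gpr34. Spi1 went from 431, 441 and 515 to 685, 607 and 716 (0.53, adjusted p = 5.2e-05, SE 0.09).

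Of the 7 genes of leukocytes in general 3 rose, 3 fell and 1 was not called. Ptprc rose by 0.56, from 604, 640.0 and 711 to 1008, 863 and 1028, Cd53 (a tetraspanin) by 0.34 and Cd48 by 0.22. Cd84, a SLAM family receptor, fell by 0.73, Coro1a, which binds actin, by 0.48, and Cd37, another tetraspanin, by 0.35. Cd52 had a log2 fold change of 0.21 (adjusted p = 0.14, SE 0.11). Ptprc, the usual measure of leukocyte content, and Cd84 thus changed in opposite directions in the same libraries.

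Of the 4 genes grouped under inhibitory signalling, Cd33 (0.83) and Pirb (0.71), the latter a receptor with inhibitory motifs, rose. Dok2, an adaptor that dampens kinase signals, fell from 136, 142 and 141 to 65.8, 55.6 and 56.3 (-1.24, adjusted p = 1.5e-06, SE 0.16). Sirpa, the receptor for CD47, was not called at 0.14 (SE 0.07, adjusted p = 0.14). Of the 6 cytosolic signalling genes only Syk, the kinase that acts downstream of Fc receptors, rose, from 627, 589 and 619 to 1674, 1633 and 1885 (1.496, adjusted p = 2.1e-10, SE 0.11). Fgr fell from 70.3, 76.9 and 97.8 to 38.2, 36.0 and 38.5 (-1.12, adjusted p = 0.00013, SE 0.20), Btk by 0.39 and Plcg2, a phospholipase that Syk and Btk activate, by 0.36. Vav1 and Was were not called, at -0.01 and -0.18.

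All 4 remaining genes fell. Rab3il1, an exchange factor for Rab GTPases, went from 204, 278 and 245 to 34.0, 30.9 and 28.6 (-2.96, adjusted p = 1.6e-11, SE 0.18). Susd3, a sushi-domain membrane protein, went from 36.6, 46.9 and 48.9 to 1.06, 1.03 and 2.96, from 132 reads in all to 5, a ratio of 25.7 (exact 95% interval 10.8 to 80.6). Cnr2, the cannabinoid receptor CB2 of immune cells, went from 143 reads to 7, a ratio of 19.9 (9.42 to 50.4). Fgd2 went from 82 reads to 5, a ratio of 15.99 (6.58 to 50.6). No rmCIRP library of these 4 genes reached the lowest PBS library.

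**Figure D4:**
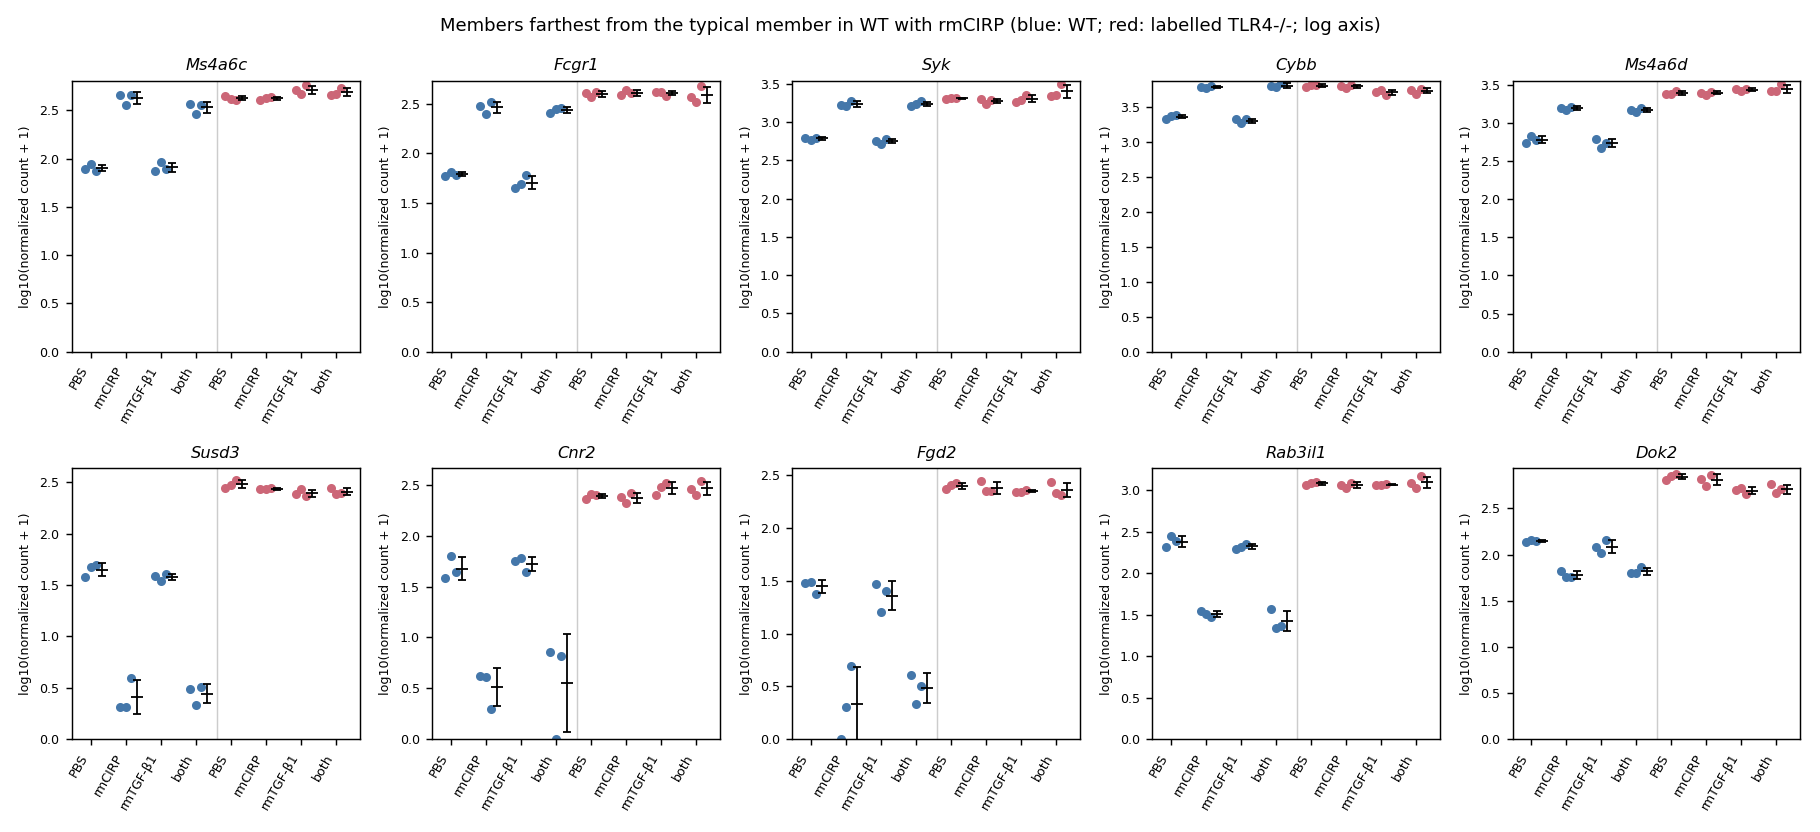
Log10 of the normalized count plus 1 in each library (points), with mean and SD of the logs for each condition (black), for the 5 members farthest above (top) and the 5 farthest below (bottom) the typical member in WT cultures with rmCIRP. WT libraries with rmCIRP, alone or in both, stand apart from those without it in every panel, and no gene was called between rmCIRP and PBS in the libraries labelled TLR4-/-.

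Sequences upstream of the genes at the 2 ends are shown because these moved in opposite directions in the same libraries. They are RefSeq promoters of the mouse assembly GRCm38.p6, which is not the build named in the submitters' notes, from 250 bases before the start to 50 after it, written in the direction of the gene. Capitals mark GAGGAA and AGGAAGT, the PU.1 and ETS-type letters searched on either strand, which overlap where they share AGGAA. Ms4a6c, Fcgr1 and Cybb rose and Susd3 and Fgd2 fell in WT cultures with rmCIRP. They lie at chr19:11469118-11469417 on the plus strand (Ms4a6c), chr3:96293920-96294219 on the minus strand (Fcgr1), chrX:9469275-9469574 on the minus strand (Cybb), chr13:49248245-49248544 on the minus strand (Susd3) and chr17:29360664-29360963 on the plus strand (Fgd2).
Ms4a6c: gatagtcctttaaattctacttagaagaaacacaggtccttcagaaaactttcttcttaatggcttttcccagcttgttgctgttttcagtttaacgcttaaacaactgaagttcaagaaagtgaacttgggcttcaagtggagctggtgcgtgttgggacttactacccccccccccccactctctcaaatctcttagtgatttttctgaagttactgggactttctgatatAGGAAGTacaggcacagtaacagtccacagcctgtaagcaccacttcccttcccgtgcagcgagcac
Fcgr1: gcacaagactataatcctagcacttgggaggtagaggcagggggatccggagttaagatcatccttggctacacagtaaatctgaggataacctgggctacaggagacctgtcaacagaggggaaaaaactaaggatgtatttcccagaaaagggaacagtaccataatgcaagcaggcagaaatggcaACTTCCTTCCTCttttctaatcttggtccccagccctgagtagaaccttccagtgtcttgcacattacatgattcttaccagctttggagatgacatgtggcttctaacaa
Cybb: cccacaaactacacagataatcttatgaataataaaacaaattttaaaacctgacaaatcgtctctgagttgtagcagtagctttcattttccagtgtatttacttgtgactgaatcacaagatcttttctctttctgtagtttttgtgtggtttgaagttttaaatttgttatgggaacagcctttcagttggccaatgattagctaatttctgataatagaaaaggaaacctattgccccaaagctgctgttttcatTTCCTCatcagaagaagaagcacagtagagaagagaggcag
Susd3: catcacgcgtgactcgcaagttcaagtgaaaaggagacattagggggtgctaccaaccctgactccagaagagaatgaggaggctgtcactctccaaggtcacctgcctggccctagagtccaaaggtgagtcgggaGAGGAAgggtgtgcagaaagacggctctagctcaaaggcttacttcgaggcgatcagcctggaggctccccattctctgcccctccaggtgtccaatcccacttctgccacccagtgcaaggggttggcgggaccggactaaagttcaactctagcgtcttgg
Fgd2: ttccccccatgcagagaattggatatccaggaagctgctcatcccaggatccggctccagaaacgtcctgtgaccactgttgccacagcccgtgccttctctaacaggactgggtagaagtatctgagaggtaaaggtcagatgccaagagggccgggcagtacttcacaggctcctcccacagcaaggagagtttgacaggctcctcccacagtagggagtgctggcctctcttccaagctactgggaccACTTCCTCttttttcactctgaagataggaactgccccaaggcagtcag
These 5 promoters, picked with values known, each hold at least 1 match, and others at the same ends did not: both promoters of Cnr2 held none, nor did 1 of 2 for Syk and 3 of 5 for Rab3il1. Across the 32 members with an entry, 27 of 42 promoters (64.3%) held either motif, beside 32.7% of all 32851 promoters. GAGGAA was in 57.1% of the members' promoters and 28.3% of all, and AGGAAGT in 28.6% and 9.35%. A match describes letters and not binding.

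Relative to the typical member, 16 members were called above and 16 below with rmCIRP in WT and 11 were not called, where 35.4% of all genes were called on this scale. Since library sizes here come from the members themselves, a near-even split is built into each fit of this kind. The 5 farthest above were Ms4a6c (2.34), Fcgr1 (2.17), Syk (1.41), Cybb (1.32) and Ms4a6d (1.27), in log2 units. Rab3il1 (-3.05) and Dok2 (-1.33) were among the 5 farthest below, with Susd3, Cnr2 and Fgd2. Spi1 (0.44), Adgre1 (0.90) and Ptprc (0.48) were called above the typical member, and Cd68 (-0.33), Lyz2 (-0.41) and Laptm5 (-0.44) below it. A factor common to the 43 genes is taken out of these values, and 32 of the 43 were called after it was. A change within macrophages, a change in the mixture of macrophage types and expression by the fibroblasts cannot be told apart in these libraries.

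In the comparison of rmCIRP with PBS in WT the fibroblast markers took 1.70 ± 0.0597% of reads with PBS and 1.31 ± 0.0574% with rmCIRP. Of the 10, 2 rose and 6 fell, where 19.8% of all genes rose and 24.1% fell. Of the 7 alveolar macrophage markers tested there, 3 were called higher and 0 lower. Of the 6 interstitial macrophage markers tested 0 were called higher and 3 lower, and all 3 epithelial markers tested were called lower. Of the 6 endothelial markers 1 was called higher and 1 lower. Over all treatments, Marco, a scavenger receptor of alveolar macrophages, ran from 622 to 3387 normalized counts in the WT libraries and from 229 to 452 in those labelled TLR4-/-. With PBS it was lower in the latter, opposite to the members, while 4 alveolar markers were called higher and 2 of the 7 tested were not called. The 4 were Siglecf (3.38 to 13.9 normalized counts in WT and 25.4 to 55.9 in the other label), Chil3 (0 to 2.32 and 11.9 to 30.3), Ear2 (0 to 1.06 and 6.18 to 18.9) and Itgax (166 to 299 and 432 to 572). The 8 alveolar markers summed to 27.0 to 108 CPM in WT and 24.5 to 33.9 CPM in the other label, with Marco the most abundant in WT and Itgax in the other label. The 7 interstitial macrophage markers summed to 24.7 to 47.3 CPM in WT and 137 to 184 CPM in the other label, with Cd209f at 0 throughout. The 6 epithelial markers summed to 0.670 to 3.48 CPM and 8.27 to 10.4 CPM, and the 6 endothelial ones to 17.3 to 28.8 CPM and 20.9 to 42.9 CPM. The endothelial sum followed Vwf (median 99.5 normalized counts in WT and 462 in the other label), while with PBS 4 of the 6, namely Pecam1, Cdh5, Tek and Cldn5, were called lower there. The part of these cell types in the members' differences was not tested.

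The response to rmCIRP in WT was measured again in 6 other libraries, where rmTGF-β1 was present in both groups. Against rmTGF-β1 alone, both proteins raised 22 members (20.5% of all genes rose) and lowered 12 (21.7% of all genes fell), with a median of 0.20. Over the 43 genes the log2 fold changes of the 2 comparisons, which share no library, had r = 0.981 and rho = 0.949. Without the 4 singled out r was 0.935 over 39 genes. Whether the cultures of the 2 comparisons came from separate pools of lungs is not stated. Both comparisons called 18 genes higher and 11 lower, none was called in opposite directions, 10 were called in 1 only and 4 in neither. Ms4a6c went from 73.6, 91.0 and 76.9 to 370.1, 286 and 361. Fcgr1 went from 43.4, 48.0 and 59.2 to 253, 277 and 289. Cybb went from 2123, 1894 and 2128 to 6322, 6128 and 7068. These 3 genes rose again, to the levels they had with rmCIRP alone or near them. Rab3il1 went from 197, 209 and 224 to 35.7, 20.9 and 22.2. Dok2 went from 120.0, 102 and 143 to 62.2, 61.5 and 72.0. Susd3 fell from 118 reads to 5, a ratio of 20.4 (exact 95% interval 8.50 to 64.0). No group of these 6 genes overlapped the other. Aif1, uncalled with rmCIRP alone, was called lower here, at -0.56 (adjusted p = 0.081, SE 0.24), and Fgr fell by 0.42, beside 1.12 with rmCIRP alone. Both of these calls hung on few libraries: that of Aif1 was lost without the first or the third library of either condition (adjusted p 0.15 to 0.26), and that of Fgr without the first or the third library with both or the third with rmTGF-β1 (0.24 to 0.38). Relative to the typical member 15 genes were called above and 20 below (66.7% of all genes were called).

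**Figure D5:**
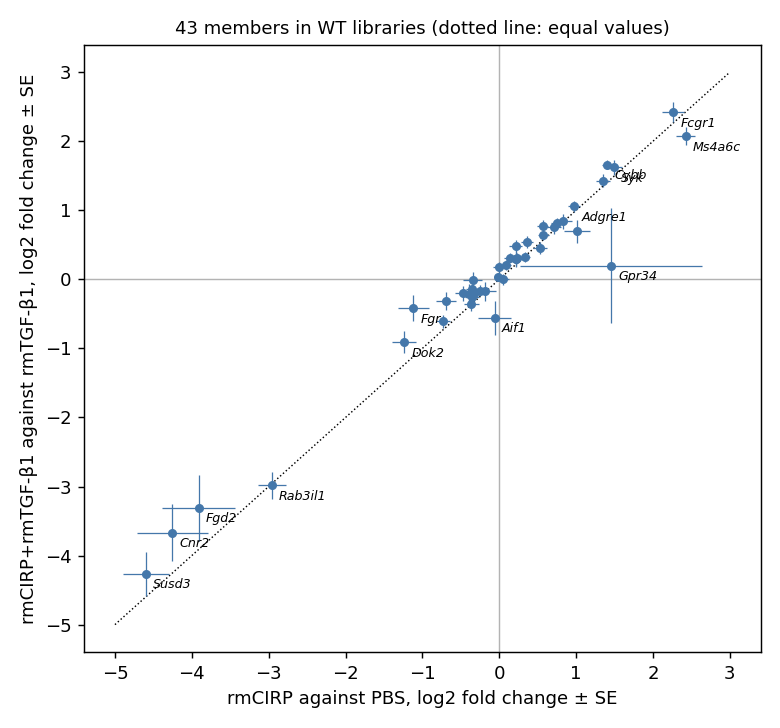
Log2 fold change ± SE of the 43 members for rmCIRP in WT, measured against PBS (horizontal) and, in other libraries, with rmTGF-β1 in both groups (vertical); the dotted line marks equal values. The genes lie along the line from Susd3 at the lower left to Ms4a6c and Fcgr1 at the upper right (r = 0.981), with Gpr34, Susd3, Cnr2 and Fgd2 resting on few reads.

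In the libraries labelled TLR4-/- rmCIRP changed no member against PBS, where 0% of all genes were called. At an unadjusted p under 0.05 there were 2 of the 43 and 6.99% of all genes, the lowest adjusted p of a member was 0.621 for Rac2, and DESeq2 called 0 as well. The 43 log2 fold changes had a median of -0.03 and lay between -0.17 and 0.05. Ms4a6c had 444, 416 and 402 with PBS and 406, 419 and 437 with rmCIRP. Cybb had 6206, 6674 and 6596 and 6349, 6083 and 6556. Susd3 had 278, 296 and 332 and 270.4, 269 and 280.2. The groups overlapped for all 3 genes. Both proteins against rmTGF-β1 alone changed none either, where 2.69% of all genes were called. Its median was 0.04, with 2 members and 17.9% of all genes at an unadjusted p under 0.05, a lowest adjusted p of 0.107 for Syk, and 2 members called by DESeq2.

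An interaction contrast compared the rmCIRP responses of the genotypes, taking the log2 fold change in the libraries labelled TLR4-/- minus that in WT. It was called positive for 13 members (17.1% of all genes) and negative for 16 (14.3% of all genes), with a median of -0.11. The largest negative values were those of Ms4a6c (-2.42, adjusted p = 2.8e-10, SE 0.16) and Fcgr1 (-2.22, adjusted p = 4e-09, SE 0.18), and among genes with enough reads the largest positive value was that of Rab3il1 (2.89, adjusted p = 8.6e-10, SE 0.21). Adgre1 (-1.07), Spi1 (-0.69) and Ptprc (-0.57) were negative, and Lyz2 (0.30) and Laptm5 (0.38) positive, although the call of Lyz2 was lost without the first PBS library labelled TLR4-/- (adjusted p = 0.103). Cd68, at 0.16 (adjusted p = 0.29, SE 0.11), was not called. Relative to the typical member 16 were positive and 15 negative (23.7% of all genes were called).

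rmTGF-β1 moved the members little. In WT it raised none (5.77% of all genes rose) and lowered 6 (6.65% of all genes fell), namely Cd53, Coro1a, Cybb, Ncf4, Sirpa and Pirb, by 0.19 to 0.32 on the log2 scale. The median was -0.17, with 36 of the 43 values negative, where libraries of a condition differed in the members' median by an SD of 0.0854. Sirpa went from 2928, 3334 and 3324 to 2846, 2517 and 2903, groups that did not overlap. The count of 6 was not stable: it fell to 0 without the third WT library with PBS or without the second WT library with rmTGF-β1, and to 3 without the second WT library with PBS.

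In the libraries labelled TLR4-/- rmTGF-β1 raised 2 members (12.1% of all genes rose) and lowered 9 (11.7% of all genes fell), with a median of 0.01. Ms4a7 went from 2202, 2479 and 2527 to 2837, 2758 and 2861 (0.24, adjusted p = 0.012, SE 0.06) and Ms4a6c rose by 0.30. Dok2 went from 646, 713 and 744 to 502, 532 and 451 (-0.50, adjusted p = 0.00099, SE 0.10), and Cybb from 6206, 6674 and 6596 to 5184, 5653 and 4823 (-0.31, adjusted p = 0.002, SE 0.07). In these the groups did not overlap. Cd53, Coro1a, Ncf4, Sirpa and Pirb fell too, so that all 6 genes lowered in WT were lowered here in other libraries, with Rac2, Dok2 and Susd3 added. The 11 calls became 6 without the third library with PBS or the third with rmTGF-β1. The 43 values of the 2 genotypes had r = 0.407. The matching interaction contrast for rmTGF-β1 was called for no member and for 0.0861% of all genes. At an unadjusted p under 0.05 it was found for 6 members and 10.4% of all genes, the lowest adjusted p being 0.355 for Ms4a7, and DESeq2 called 0.

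A list of 24 further macrophage genes, none of them among the 43, was compared in the same fits. Like the members, it was chosen with earlier results of these data known, so it is not an independent check. With PBS all 24 were higher in the libraries labelled TLR4-/-, where 23.2% of all genes tested were called higher. Their median was 2.13 beside 2.16 for the members, and the values ran from Lgmn, a lysosomal protease (0.75), to Cx3cr1, the fractalkine receptor (3.38). With rmCIRP in WT 6 rose (19.8% of all genes rose) and 14 fell (24.1% of all genes fell), with a median of -0.27. Among those that rose were Lcp2 (1.87), an adaptor downstream of Syk, Cd14 (1.70), the co-receptor of TLR4, Cd86 (1.51), a costimulatory ligand, Fcgr2b (1.46), the inhibitory IgG receptor, and Lcp1 (0.54). Genes that fell included Cd300a (-2.53), Cx3cr1 (-1.94), Trem2 (-0.83), Mrc1 (-0.71), the mannose receptor, and Csf1r (-0.52), the receptor for the growth factor M-CSF. The complement genes C1qa, C1qb and C1qc fell by 0.50, 0.38 and 0.49 on the log2 scale. In the libraries labelled TLR4-/- rmCIRP changed none of the 24, where 0% of all genes were called (lowest to highest log2 fold change -0.17 to 0.04).

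Some members share sequence with other genes, and their counts are less certain. Of the 50-base stretches of their GENCODE M21 transcripts, 34.0% were found in another gene for Pirb (Lilra6 and Pira genes), 15.4% for Lyz2 (Lyz1), 10.5% for Ms4a6c (Ms4a6b) and 9.58% for Fcgr3 (Fcgr2b). Lyz1 itself had 12 to 94 reads in any library. Ms4a6b had 66 to 93 reads in WT with PBS, 152 to 218 in WT with rmCIRP and 599 to 951 over the libraries labelled TLR4-/-, so that it was of the size of Ms4a6c and higher in the same libraries. The split of shared reads between these 2 genes was not tested. Ms4a6c also overlaps BE692007 on the other strand over 1088 of its 2050 exon bases. BE692007 had 19 to 29 reads in WT with PBS and 58 to 80 in WT with rmCIRP. It had 20 to 24 with rmTGF-β1 and 58 to 80 with both in WT, and 82 to 165 in the libraries labelled TLR4-/-. It was thus higher in the same libraries as Ms4a6c. Whether reads were counted by strand is not given in the sources used here, and the part of BE692007 in the Ms4a6c counts was not tested.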

How the data were processed

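RNA from 24 cultures of mouse pulmonary fibroblasts was sequenced by the authors from stranded total RNA libraries, aligned with STAR to the mouse GENCODE reference and counted per gene with HTSeq; the submitters' notes name the build NCBIM37, and the annotation release and the strand option are not given in the sources used here. The deposited values are raw read counts per gene, 1 file per library, with 5 tally lines (14.5 to 16.1% of reads) left out. The members and lists were chosen with earlier results of these data known.

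Genes were filtered with filterByExpr over the 8 conditions, scaled by TMM and fitted in R 4.3.3 with edgeR 4.0.16, with 1 mean per condition over all 24 libraries. The quasi-likelihood test gave two-sided p-values, adjusted by the Benjamini-Hochberg method over 16258 genes, and a gene was called at an adjusted p under 0.1. There were 12 comparisons. A second fit took library sizes from the median ratio over the 40 members with reads in every library. Normalized counts are counts divided by DESeq2 1.42.0 size factors and are printed as levels only. Where the highest count of the lower group was at most 4, the ratio of summed reads is given with an exact 95% conditional interval, which covers counting error only. Named genes were the 6 anchors, the oxidase, Fc receptor and MS4A genes, and the members farthest from the typical member; the other members named, which complete their role groups, were chosen after their values were seen. Scripts were tested on simulated data. Replicates of a condition differed by more than sampling noise (chi-square per degree of freedom 2.67 to 50.6), so none was merged. Same-numbered libraries of different conditions correlated with a mean r of 0.0120 (84 pairs, from -0.117 to 0.369, 4 over 0.1), and the main fit did not pair them. That mean does not exclude a pairing of some libraries, and counts with a replicate block are given below. Alternatives were DESeq2, RLE scaling, other filters, a replicate block, only the libraries compared, leaving out each library, another denominator for shares, and leaving out single members. Single values of some genes of the further macrophage list are not reported here.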

Additional observations from a re-analysis of the deposited data

Results flagged for a closer look

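For 29 members the response to rmCIRP differed between the genotypes by a direct test in edgeR (adjusted p under 0.1). Of all genes tested 17.1% were called positive and 14.3% negative in the same contrast. The values are the log2 fold change for rmCIRP against PBS in the libraries labelled TLR4-/- minus that in WT, with 3 libraries in each condition.

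It was negative for 16 genes, all of them higher with rmCIRP in WT: Ms4a6c (-2.42), Fcgr1 (-2.22), Syk (-1.61), Cybb (-1.44), Ms4a6d (-1.34), Lst1 (-1.14), Adgre1 (-1.07), Rac2 (-0.92), Cd33 (-0.86), Pirb (-0.72), Spi1 (-0.69), Fcer1g (-0.68), Ptprc (-0.57), Ncf4 (-0.40), Cd53 (-0.35), Unc93b1 (-0.31). In WT with rmCIRP the libraries of Ms4a6c and Cybb overlapped those labelled TLR4-/- with PBS in level, and those of Fcgr1 stayed below them.

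It was positive for 13 genes, all of them lower with rmCIRP in WT: Lyz2 (0.30), Fcgr3 (0.34), Plcg2 (0.36), Coro1a (0.36), Laptm5 (0.38), Pld4 (0.59), Cd84 (0.73), Fgr (1.05), Dok2 (1.13), Rab3il1 (2.89), and Fgd2 (3.86), Cnr2 (4.20), Susd3 (4.46). The last 3 rest on 5 to 7 reads in all in WT with rmCIRP, and their fitted values depend on the prior count.

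The calls of Coro1a and Fcgr3 were lost when single libraries were left out (adjusted p 0.11 to 0.14 for 5 libraries and 0.10 to 0.13 for 6). A difference in response cannot be told apart from a difference between cell preparations. Groups of 3 libraries were not tested for single outlying libraries.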

How the results depend on the processing

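Direction and call were kept for most results under the alternatives. With DESeq2 in place of edgeR the 43, 40, 43 and 43 members that differed between genotypes and the 34 that responded to rmCIRP in WT were the same numbers. For both proteins against rmTGF-β1 in the libraries labelled TLR4-/-, where no member was called, DESeq2 called 2, keeping every gene gave 4, keeping genes with a mean of at least 10 reads gave 1 and the replicate block gave 2. For rmTGF-β1 in WT the 6 members called became 12 without a filter, 12 with the replicate block and 10 with only the libraries compared, all of them lower. For the genotype difference in the rmTGF-β1 response, 1 was called without a filter. The cause was not tested. Leaving out each library gave 0 to 7 members for rmTGF-β1 in WT, 6 to 11 in the libraries labelled TLR4-/-, where 6 were left without the third PBS library or the third rmTGF-β1 library, and 0 to 4 for both proteins against rmTGF-β1 in the libraries labelled TLR4-/-, where 4 were called without the first library with both and 2 without the third rmTGF-β1 library. For rmCIRP in WT the range was 31 to 35.

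Medians without the 4 singled-out members were 1.88 (genotypes with rmCIRP), 1.86 (with both), 0.21 (rmCIRP in WT) and -0.22 (difference in response), since fewer genes enter. Summed shares with the 100 genes of highest mean count left out of the denominator were 0.454, 0.413, 0.418 and 0.413% in WT with PBS, rmCIRP, rmTGF-β1 and both, and 1.67, 1.64, 1.67 and 1.71% in the libraries labelled TLR4-/-. With the full denominator and without Lyz2 the shares were 0.104, 0.130, 0.0931 and 0.127%, and 0.402, 0.390, 0.387 and 0.404%.

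Single genes were followed in 5 of the 12 comparisons, and there the sign turned in genes that were not called. Medians near 0 in the libraries labelled TLR4-/- also turned when libraries were left out, from -0.070 to 0.0048 for rmCIRP, -0.020 to 0.094 for both against rmTGF-β1 and -0.023 to 0.041 for rmTGF-β1, the last also turning without a filter on low counts. For rmCIRP in WT, Vav1 was 0.0094 with a filter at a mean count of 10, 0.0032 without a filter and 0.010 with only the libraries compared, and Cyba was 0.0045 with that filter and 0.0053 with only the libraries compared. Cd37 was 0.0030 with that filter for both against rmTGF-β1 in WT, and Ms4a6c was 0.00059 with the replicate block between genotypes with rmCIRP. Leaving out libraries gave ranges of Aif1 -0.18 to 0.13 (rmCIRP in WT), Aif1 -0.15 to 0.17 (the difference in response to rmCIRP), Cd37 -0.084 to 0.035 (both against rmTGF-β1 in WT), Cyba -0.036 to 0.0296 (rmCIRP in WT), Gpr34 -0.33 to 0.63 (both against rmTGF-β1 in WT), Ms4a6c -0.11 to 0.049 (the genotypes with rmCIRP), Ms4a7 -0.091 to 0.074 (both against rmTGF-β1 in WT), Vav1 -0.066 to 0.087 (rmCIRP in WT) and Vav1 -0.049 to 0.10 (the difference in response to rmCIRP).

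With the replicate block 36 members were called for rmCIRP in WT, 35 for both against rmTGF-β1 in WT, 12 for rmTGF-β1 in the libraries labelled TLR4-/- and 31 for the difference in response to rmCIRP, and the block moved no other count by over 1.5 times than those given above. With 3 libraries per condition and lungs pooled, small differences such as those of Sirpa and Cd52 in WT with rmCIRP passed the threshold in some settings and not in others, and genes under 10 reads carry wide intervals.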
